A study of Caenorhabditis elegans with 9 samples.

Results

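The regions described here are the peaks listed for the tagged transcription factor PES-1 on the centre and right part of chromosome III of the nematode Caenorhabditis elegans. They were chosen by position and by being listed by the peak caller at all, which in these lists means a q-value (a p-value adjusted for the number of regions tested) under 0.01. A peak belongs to the set when its midpoint lies on chromosome III at or above position 4590000 of genome build WS190. The rule took 834 of the 7213 peaks of the combined list, 462 of the 3488 peaks of replicate 1 and 496 of the 4185 peaks of replicate 2. These are 11.6% of the combined list, 13.3% of replicate 1 and 11.9% of replicate 2.

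PES-1 is a forkhead protein, a member of a family of transcription factors that bind DNA through a winged-helix domain. In C. elegans, pes-1 is known mainly from its expression in the early embryo, where it overlaps in function with another forkhead gene, fkh-2. C. elegans autosomes have gene-dense centres of low recombination flanked by arms that are richer in repeats, so a span that runs from the centre to the right end of a chromosome takes in both kinds of domain.

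Binding was measured by ChIP-seq, in which crosslinked chromatin is precipitated with an antibody and the recovered DNA is sequenced. All libraries came from L4 hermaphrodites of strain OP87. It carries the unc-119(ed3) III mutation and the insertion wgIs87, which holds unc-119(+) together with the tagged gene pes-1::TY1::EGFP::3xFLAG. Worms were grown at 20 °C and fixed with 2% formaldehyde. The transgene was introduced by bombardment and read out with a goat anti-GFP antibody, so the lists show where DNA was recovered with that antibody, in whole animals. There was no untagged or otherwise untreated strain among the libraries used here, so recovery that does not depend on the tagged protein cannot be told apart. The mutated copy of unc-119 is on chromosome III and the transgene adds a working copy; whether any of the 834 regions lies at unc-119 was not analysed here. The labels give 2 ChIP libraries and 4 input libraries to replicate 1 and 3 ChIP libraries to replicate 2. Each replicate enters as 1 peak list, so no difference below has a spread between libraries and no test over samples was possible. The lists give no read counts, and the depth behind a peak is unknown. The q-values are the authors' own and reflect sequencing depth and the control used, not enrichment alone.

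The first whole 100 kb window inside the position threshold, III:4600001-4700000, held 8 combined peaks, against a window median of 9 in the span. The 2 peaks nearest to the threshold were less significant on its inner side than on its outer side. The 2 combined peaks just inside it, at III:4612359-4612970 and III:4626482-4626633, had q = 8.73e-06 and q = 0.00717. The earlier of these 2 was in replicate 2 alone and the later was in neither replicate list. The 2 just outside, at III:4578413-4578719 and III:4587131-4587495, had q = 3.65e-08 and q = 3.06e-08 and both were in both replicate lists.

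On centre and right chromosome III, listed peaks were denser than on II, IV, V and X together, sparser than on left III, and rather evenly spread. The span of 9.18 Mb from the threshold to the last peak end held 90.8 combined peaks per Mb, against 143 on the left part of the same chromosome and 58.8 on chromosomes II, IV, V and X together. The density was therefore 0.63 times that of left III and 1.55 times that of the other 4 chromosomes. Replicate 1 gave 50.3 peaks per Mb in the span, 78.0 on left III and 28.5 on the other 4 chromosomes. In replicate 2 they were 54.0 in the span, 98.9 on left III and 38.0 on the other 4. The order of these 3 parts was the same in each list. Chromosome II, the densest of the 4, had 74.3 peaks per Mb in the combined list and 35.8 in replicate 1. In replicate 2 it had 50.7, near the 54.0 of the span. Chromosome I was kept out of the second ratio because 50.5% of its combined peaks had no counterpart in either replicate list. The span was below chromosome I in the combined list, at 90.8 against 101 peaks per Mb. It was above it in replicate 1, at 50.3 against 42.1, and in replicate 2, at 54.0 against 34.7. Peaks covered 3.82% of the span in the combined list, against 5.26% of left III and 2.61% of the other 4 chromosomes. The threshold was set with earlier results known and peaks are not independent samples, so these ratios are descriptions without a test.

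The evenness showed in windows of 100 kb. The span has 91 whole windows, and every one held at least 1 combined peak, with a median of 9 and a highest count of 17. The variance of the window counts was 1.32 times their mean. On left III, 45 windows held between 2 and 44 peaks, with a variance of 5.46 times the mean. The ratio of variance to mean was 3.06 on II, 2.51 on IV, 2.99 on V, 1.45 on X and 2.22 on I, so the value in the span was the lowest of the 7 parts in the combined list. In replicate 1 it was also the lowest, at 1.05, but in replicate 2 the span, at 1.49, was above X at 1.13 and I at 1.38. Only 1 window of the span was empty in replicate 1 and 1 in replicate 2. Chromosomes I, II, IV, V and X were taken whole, whereas the threshold, set with earlier results known, kept left III apart from the span. The ratios of variance to mean therefore compare unlike parts, and their differences were not tested.

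**Figure D1:**
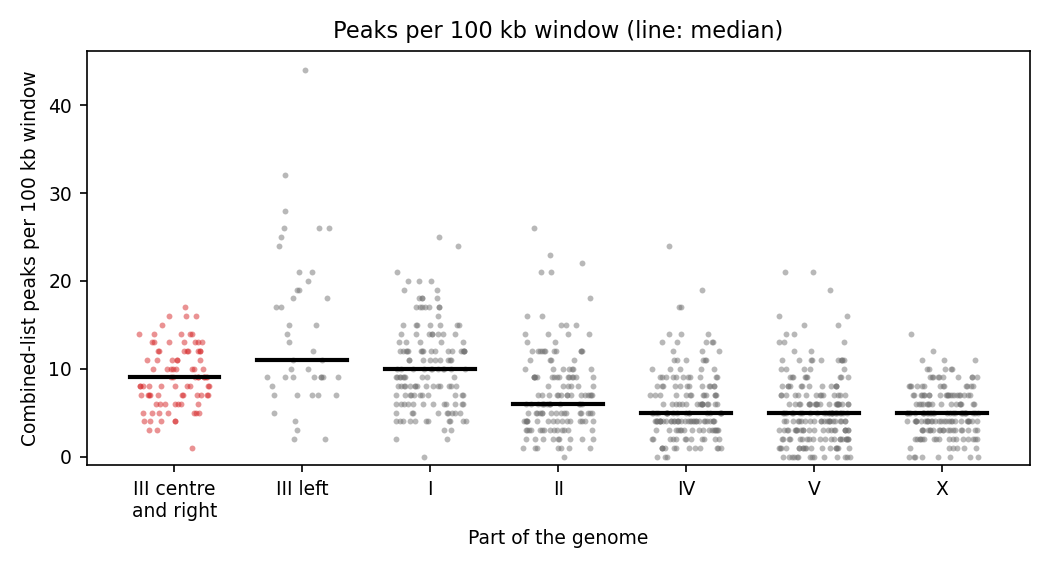
Combined-list peaks in each 100 kb window (vertical axis, count) for centre and right chromosome III (red, 91 windows) and the other parts of the genome (grey); black lines are medians. Windows of centre and right III lie between 1 and 17 peaks around a median of 9, while left III reaches 44.

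Peak number varied along the span. Among the 8 whole bins of 1 Mb, combined peaks numbered between 70, from 9000001 to 10000000, and 119, from 11000001 to 12000000. The fullest 100 kb window was III:10800001-10900000, with 17 combined peaks, 6 replicate 1 peaks and 7 replicate 2 peaks. Of these 17 combined peaks, 3 were in both replicate lists and 7 in neither. The windows III:11400001-11500000, III:11900001-12000000 and III:12600001-12700000 followed with 16 combined peaks each. They differed in replicate support, since 2, 6 and 7 of their 16 peaks were in both lists. The window III:5800001-5900000 came next with 15 combined peaks, of which 2 were in both lists and 7 in neither. The window from 11900001 was also the fullest in replicate 2, with 14 peaks. A full window in the combined list was thus not always a full window in the replicates.

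Gaps between neighbouring combined peaks had a median of 5882 bp, against 2318 bp on left III. Of the 833 gaps, 122 (14.6%) were under 1 kb, and 11 were 50 kb or longer. The longest stretch without a combined peak was III:9290017-9393275, 103259 bp, and the longest gap of replicate 2, III:9257059-9406589, contains it. Replicate 1 had its longest gap elsewhere, at III:9849256-10064138. Peaks under 1 kb apart formed 96 runs with 218 peaks, and most were pairs: 72 runs had 2 peaks, 22 had 3 and 2 had 4. The run of 4 at III:11933465-11938473 spanned 5009 bp, had a smallest q of 1.19e-40 and held 1 peak found in both replicates. The other run of 4, at III:11371192-11374047, had a smallest q of 1.14e-38 and held 2 such peaks and 2 found in neither.

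The strongest PES-1 region of all 3 lists lies in this span. At III:7709628-7712483 the combined q was 2.67e-233, the replicate 1 q was 1.42e-136 and the replicate 2 q was 9.11e-123. A second peak of 2156 bp, III:7707234-7709389, ends 238 bp before it with q = 6.56e-09, and it too was in both replicate lists. To the right, the stretch III:7718268-7727804 held 6 combined peaks within 10 kb, as many as any 10 kb of the span, and 4 of the 6 were in both replicates. Within 50 kb of the strongest region there were 9 other combined peaks, 7 of them in both lists. The next most significant of these, III:7728445-7730561, had a combined q of 4.40e-21, a replicate 1 q of 6.77e-10 and a replicate 2 q of 7.05e-06. None of the 9 neighbours was among the 100 most significant peaks of the combined list.

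The 20 regions of smallest combined q were all found in both replicate lists, and their combined q was smaller than either replicate's in all 20. They run down to q = 5.30e-39. Of the 20, 12 lie on the centre side of the span, below its middle at position 9180725, and 8 on the right side. Replicate 1 had the smaller q in 16 of them. After the strongest region came III:10758925-10759437, 513 bp wide, with a combined q of 1.39e-86, a replicate 1 q of 5.62e-62 and a replicate 2 q of 5.35e-41. It ranked 5 in the whole of replicate 1 and 6 in the whole of replicate 2. The region III:7497878-7498747 had 4.66e-82 in the combined file, with 1.49e-62 in replicate 1 and 3.20e-35 in replicate 2, ranks 4 and 14. The region III:7162209-7162684 had a combined q of 3.39e-68, with 7.66e-42 from replicate 1 and 1.42e-46 from replicate 2. It is 1 of the 4 of the 20 in which replicate 2 had the smaller q.

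The regions that followed were close in rank between the replicates. III:12250032-12251356 had a combined q of 3.66e-63, with 1.93e-33 in replicate 1 and 1.19e-32 in replicate 2. III:7854416-7854842 had a combined q of 1.32e-57, with 8.11e-38 in replicate 1 and 1.21e-32 in replicate 2. III:12904900-12905341 had a combined q of 2.83e-55, with 1.75e-37 in replicate 1 and 5.27e-26 in replicate 2. In these 3 regions the ranks ran from 25 to 40 in replicate 1 and from 17 to 33 in replicate 2. III:8416950-8418031 and III:8903932-8904414 departed from this: they ranked 22 and 19 in replicate 1 but 118 and 126 in replicate 2. III:11463653-11464083 went the other way, ranking 103 in replicate 1 and 24 in replicate 2, as did III:8628264-8628662, at 245 and 25. Also among the 20 were III:5018059-5018509, III:6971840-6972242 and III:4899658-4900142, at 403 to 485 bp, with combined q values of 1.98e-50, 7.67e-42 and 5.21e-40. III:13067846-13068716 and III:4649218-4650383 had q = 7.08e-40 and q = 1.00e-40.

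Some of the 20 were broad regions. III:12612260-12616314, the widest peak of the span at 4055 bp, had a combined q of 2.96e-42. It was called as 2 peaks in each replicate, with best q values of 3.05e-16 in replicate 1 and 2.83e-06 in replicate 2. III:11934815-11937061 was called as 2 peaks in replicate 1 and 3 in replicate 2, and III:12368056-12369732 as 1 and 2. III:9051228-9055072, 3845 bp wide, was a single 3779 bp peak in replicate 1 with q = 2.44e-33. In replicate 2 the same place held a single 568 bp peak, III:9054404-9054971, with q = 0.00318 and rank 2985. Its membership in both lists therefore rests on a short and weak call in replicate 2.

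**Figure D2:**
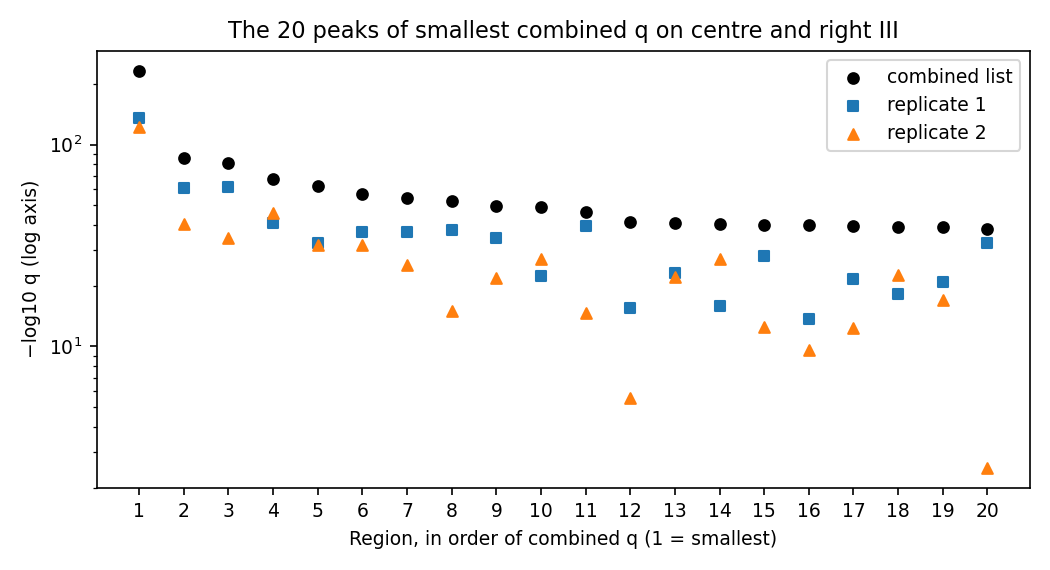
The −log10 q (vertical log axis) of the 20 regions of centre and right III with the smallest combined q, ordered on the horizontal axis, in the combined list (black circles), replicate 1 (blue squares) and replicate 2 (orange triangles). The first region, at 233 in the combined list, stands above all others; replicate 2 falls to 2.50 in the last.

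Centre and right III held some of the most significant peaks of the genome. Its peaks made up 5 of the 20 most significant combined peaks of the genome, 19 of the best 100 and 67 of the best 500, shares of 25%, 19% and 13.4% against 11.6% of the whole list. In replicate 1 they made up 17 of the best 100, against 13.3% of that list, and in replicate 2 15 of the best 100, against 11.9%. This was not particular to the span: left III, with 9.11% of the combined list, held 14 of its best 100 and 64 of its best 500 peaks. Left III also held 17 of the best 100 in replicate 1 and 20 in replicate 2. A q below 1e-10 was reached by 170 of the 834 combined members (20.4%), against 18.4% of all combined peaks. The share was 24.05% on left III, 21.2% on chromosome I and 16.07% on II, IV, V and X together. The bin from 8000001 to 9000000 held 14 of the 67 members among the best 500 and the bin from 6000001 to 7000000 held 2.

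Replicate support divided the combined members into 4 classes. Of the 834 combined members, 300 (36.0%) overlapped a peak in each replicate list by at least 1 bp, with an exact 95% binomial interval from 32.7 to 39.3%, against 32.7% of all combined peaks. Another 148 (17.7%, 15.2 to 20.5%) overlapped a peak of replicate 1 alone, against 14.6% in the whole list. Replicate 2 alone held 146 (17.5%, 14.99 to 20.3%), against 19.0%, and neither list held 240 (28.8%, 25.7 to 32.0%), against 33.7%. The whole-list share lay inside the interval for replicate 2 alone, at its lower bound for both lists, below it for replicate 1 alone and above it for neither. The intervals cover counting error only, and neighbouring peaks are not independent. Chromosome I supplies many of the unsupported peaks of the whole list: on II, IV, V and X together, 34.0% were in both lists and 29.9% in neither, nearer to the span. On left III 40.6% were in both and 24.7% in neither. In the span, peaks seen in 1 list were split almost evenly, 148 from replicate 1 and 146 from replicate 2, while on the 4 other chromosomes 13.7% were in replicate 1 alone and 22.4% in replicate 2 alone. The even split was not particular to the span: chromosome IV, 1 of those 4, had 17.6% in replicate 1 alone and 18.0% in replicate 2 alone. These differences between parts were not tested.

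Support went with the combined q in much the same way as on II, IV, V and X. All 62 members with a q below 1e-20 were in both lists, as were all 225 such peaks on those 4 chromosomes. Between 1e-20 and 1e-10 it was 107 of 108 members (99.1%), against 97.3%. Between 1e-10 and 1e-05 the share was 110 of 173 (63.6%), against 68.6% on II, IV, V and X. Between 1e-05 and 0.001 it was 21 of 242 (8.68%), against 8.98%, and above 0.001 none of 249 was in both, against 3 of 1398. In that last range 176 of 249 (70.7%) were in neither list, against 69.5%. In rank order, the first member missing from a replicate list was number 160. If the combined list was made from the reads of both replicates, which was not tested, its q is not independent of the replicate calls.

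**Figure D3:**
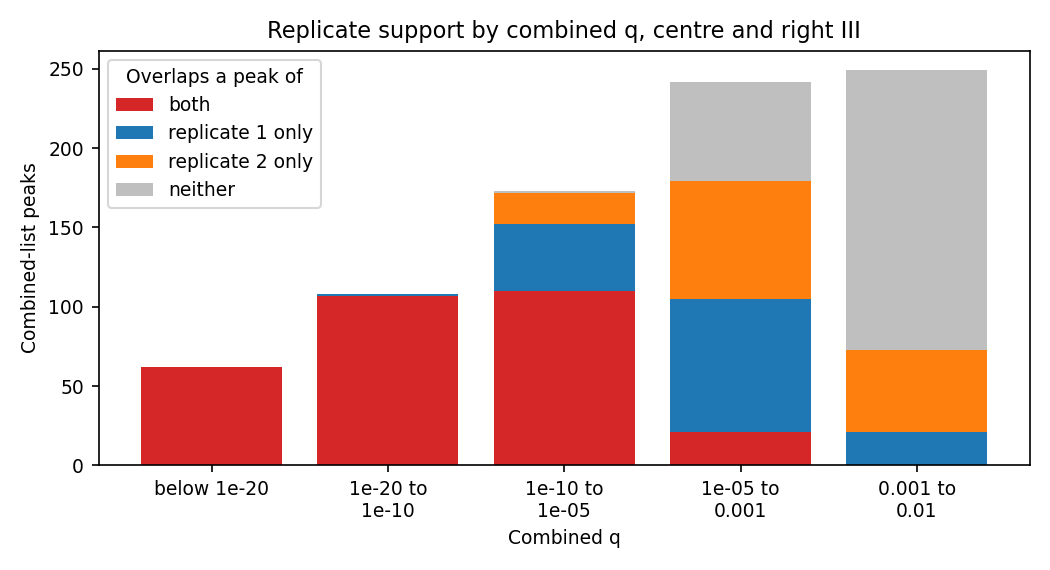
Number of combined-list peaks on centre and right III (vertical axis) in 5 ranges of combined q (horizontal axis), coloured by the replicate lists that hold the region. All 62 peaks below 1e-20 are in both lists; of the 249 between 0.001 and 0.01, 176 are in neither.

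Support also varied along the span. The share of combined peaks in both lists was highest in the bin from 8000001 to 9000000, at 49 of 96 (51.0%), and lowest from 6000001 to 7000000, at 22 of 77 (28.6%). From 7000001 to 8000000 it was 33 of 77 (42.9%). On the centre side of the span 153 of 391 (39.1%, 34.3 to 44.2%) were in both lists, and on the right side 147 of 443 (33.2%, 28.8 to 37.8%), with overlapping intervals. The centre side held fewer peaks, 85.2 per Mb against 96.5 on the right side in the combined list. In replicate 1 the densities were 46.8 per Mb on the centre side and 53.8 on the right side, and in replicate 2 they were 52.5 on the centre side and 55.5 on the right side.

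The most significant members missing from replicate 2 were modest in rank. III:8227250-8227888, with a combined q of 2.72e-11, had a replicate 1 q of 2.54e-09 and ranked 1229 in the combined list. The others of the 5 were III:8354651-8355365, III:6302983-6303554, III:7234140-7234436 and III:12567919-12568625, with combined q values from 1.47e-10 to 4.73e-10. The most significant missing from replicate 1 were weaker. III:6453534-6453982 had a combined q of 4.11e-08 and a replicate 2 q of 1.73e-06. It was followed by III:11937957-11938473, III:7141157-7141441, III:8509654-8510214 and III:10320587-10321204, down to a combined q of 5.65e-07. Of the regions in neither list, III:5957869-5959342 was the most significant, a 1474 bp peak with q = 3.23e-06. The next, III:12157620-12157679 with q = 1.73e-05 and III:12819221-12819227 with q = 2.93e-05, were only 60 bp and 7 bp wide. III:10856713-10857049 and III:6362090-6362963 had q = 5.62e-05 and q = 8.83e-05.

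Seen from the replicates, about 2 of 3 peaks were shared. Of the 462 replicate 1 peaks in the span, 304 (65.8%, 61.3 to 70.1%) overlapped a replicate 2 peak, against 67.7% of all replicate 1 peaks. Of the 496 replicate 2 peaks, 311 (62.7%, 58.3 to 67.0%) overlapped a replicate 1 peak, against 57.3% of all replicate 2 peaks. When the peaks of each list were put in 4 equal classes by q, the most significant class was shared in 112 of 116 cases in replicate 1 and 120 of 124 in replicate 2. The least significant class was shared in 44 of 115 (38.3%) and 35 of 124 (28.2%). These classes were made in the span alone. Outside the span, shared peaks also had the smaller q. The median there was 5.40e-06 for shared and 0.00135 for unshared peaks in replicate 1, and 5.95e-05 and 0.00296 in replicate 2. All but 8 of the replicate 1 peaks and all but 32 of the replicate 2 peaks overlapped a combined peak. The shares were 98.3% in replicate 1 and 93.5% in replicate 2, against 98.6% and 91.2% of the whole lists. None of these 40 was shared between the replicates. The most significant of the 8 was III:6168734-6169202, with q = 0.00319, and of the 32 III:12918725-12918771, with q = 2.93e-04. III:9509629-9510376, 748 bp wide in replicate 2 with q = 3.47e-04, also had no combined peak.

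Regions shared by the replicates were similarly placed and similarly ordered. In 303 cases a peak of replicate 1 and a peak of replicate 2 were mutual best overlaps. Their midpoints lay a median of 27 bp apart, and 239 pairs (78.9%) were within 100 bp, against 79.5% of the pairs elsewhere. The −log10 q had Spearman's rho = 0.71 across these pairs, against 0.61 over the 2045 pairs elsewhere. Pearson's r was 0.90, and 0.81 without the strongest region, against 0.76 and 0.74 over the pairs elsewhere. Without the strongest pair of each, the other parts ran from 0.61 on X to 0.81 on V. These are descriptions across peaks, which share the peak caller and the strain, and pairs exist only where both lists passed the q limit. Replicate 1 had the higher value in 208 of 303 pairs (68.7%), against 64.2% elsewhere, and the median excess in −log10 q was 1.20, against 0.74 elsewhere. Replicate 1 peaks were also the wider in 213 of 303 pairs (70.3%), against 64.5% elsewhere.

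The largest differences of −log10 q favoured replicate 1. At III:9051264-9055042 the value was 32.61 in replicate 1 and 2.50 in replicate 2. At III:7497938-7498748 it was 61.83 and 34.49, at III:8903893-8904384 39.29 and 14.70, and at III:8416944-8418031 37.87 and 14.98. At III:11980354-11981905 it was 26.62 and 5.49. In the other direction the largest difference was at III:8628304-8628657, with 15.78 in replicate 1 and 27.02 in replicate 2. It was followed by III:11372240-11372825, with 13.94 and 22.68, and III:10461052-10461379, with 2.64 and 9.71. At III:11119230-11119537 the values were 4.34 and 9.40, and at III:11792570-11793064 they were 3.05 and 7.98. None of these differences has a test, as a region has 1 value per list.

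**Figure D4:**
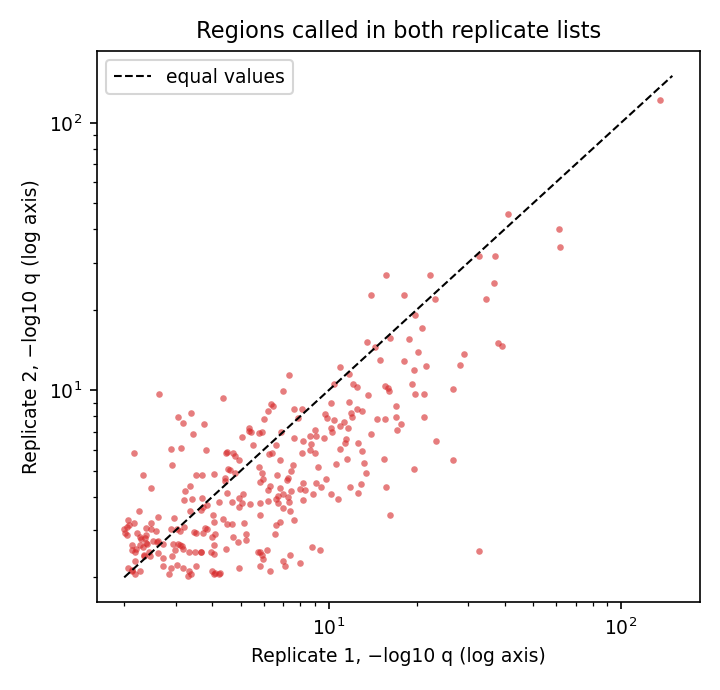
The −log10 q of 303 regions of centre and right III called in both replicate lists, replicate 1 on the horizontal and replicate 2 on the vertical log axis; the dashed line marks equal values. Most points, 208 of 303, lie on the replicate 1 side of the line, and the region of smallest q is at the top right.

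Peak widths in the span were ordinary. The median width of combined members was 332 bp (quartiles 236 and 477 bp); replicate 1 had 352 bp and replicate 2 had 308 bp. Over all other combined peaks the median was 336 bp, and on left III 274 bp. Members of 1 kb or more numbered 52 (6.24%), against 4.11% on left III and 5.89% on II, IV, V and X. Besides III:12612260-12616314, III:9051228-9055072 and the strongest region, the 5 widest included III:8443571-8447256, 3686 bp with q = 1.75e-31, and III:13462817-13465289, 2473 bp with q = 5.57e-37. Members called in pieces were mostly wide: of the 8 combined members that covered 2 or more replicate 1 peaks, 7 were 1 kb or wider, and of the 17 that covered 2 or more replicate 2 peaks, 15 were. Such a member has to span the gap between the replicate peaks, which is at least 200 bp, so its width is partly built in.

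Wider members were more often in both lists, as were wider peaks elsewhere. Regions in both lists had medians of 420 bp in width and 9.21e-12 in q. Those in replicate 1 alone had medians of 338 bp and 4.23e-05, those in replicate 2 alone 294 bp and 3.84e-04, and those in neither 212 bp and 0.00270. Of the 52 members of 1 kb or more, 41 (78.8%) were in both lists, against 238 of 326 (73.0%) among the other combined peaks of that width. Of the 77 members under 100 bp none was, nor were any of the 611 such peaks elsewhere. Across all 834 members, width and −log10 q had Spearman's rho = 0.58. A wide peak meets an overlap of 1 bp more easily, so width and support are not separate measures.

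**Figure D5:**
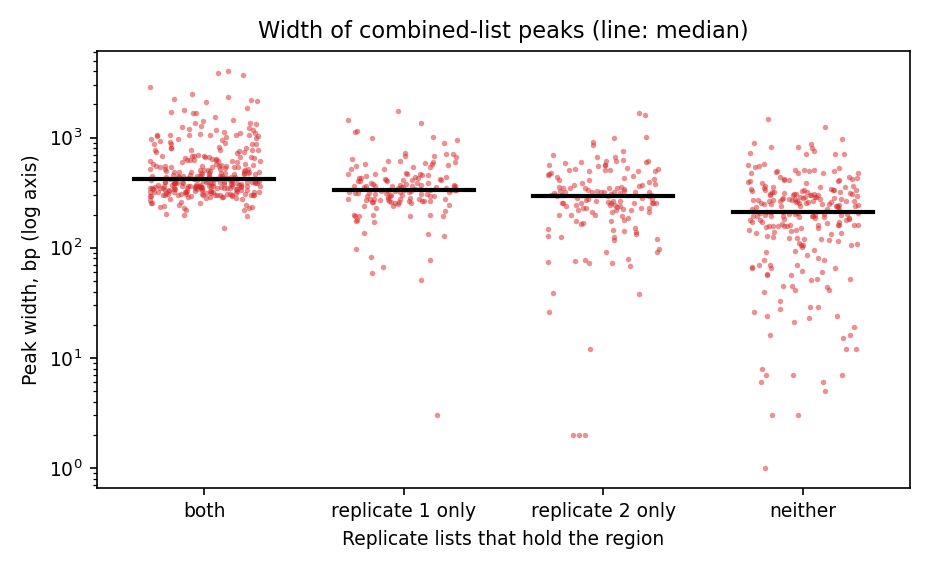
Width in bp (vertical log axis) of the 834 combined-list peaks on centre and right III, by the replicate lists that hold the region; black lines are medians. The medians are 420 bp for regions in both lists and 212 bp for those in neither, and no region under 100 bp is in both lists.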

How the data were processed

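The data are 3 lists of PeakSeq peaks on genome build WS190, per the file headers and their method column: 1 for each of 2 replicates and 1 combined. Each peak has a position and a q-value, deposited by the authors and used as given. Not given in the sources used here are PeakSeq's version and threshold, the aligner, the control, and the making of the combined list. A list was tied to its replicate because its name begins that replicate's sample titles.

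Python 3.11.15 with pandas 2.3.3 read the lists, and scipy 1.17.1 gave the intervals. Peaks overlap at 1 bp or more. Densities use the last peak end over the 3 lists as the chromosome's length. Shares have exact binomial (Clopper-Pearson) 95% intervals. The overlap and correlation routines were tested on simulated data with known answers. Named regions follow fixed rules: the 20 of smallest combined q, the 5 widest, the 5 of smallest q in each class of partial support, the most significant replicate peaks without a combined peak, the 5 fullest windows, and the 5 largest differences in either direction. The runs of peaks under 1 kb apart and the surroundings of the strongest region were added after values were seen. Members and rules were chosen with earlier results of these data known. Gene names and sequences are not given, since the gene table at hand is on assembly WBcel235 and coordinates were not carried between builds.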

Additional observations from a re-analysis of the deposited data

How the results depend on the processing

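For 9 results, values were recomputed under 44 settings in all, and neither density ratio crossed 1. Of the values, 21 stayed within an interval around the reported value and 23 moved beyond it. For shares and density ratios the interval covers counting error, and for counts and densities the limit was 1.5 times. The cause was not tested unless the setting itself gives it. A reciprocal overlap of 50% lowered the share of combined members in both lists to 29.5%, of replicate 1 peaks found in replicate 2 to 56.7% and of replicate 2 peaks found in replicate 1 to 52.8%. Keeping q below 0.001 gave 51.3% of combined members in both lists, 76.5% of replicate 2 peaks in replicate 1, a rho of 0.64, a median width of 367 bp and a density ratio to left III of 0.56. Keeping peaks of at least 100 bp gave 39.4% in both lists. Asking for 1 replicate list in place of both gave 53.5% and 53.7%, by construction. With either replicate list in place of the combined one, density was 50.3 to 54.0 per Mb, the ratio to left III 0.55 to 0.65, the ratio to II, IV, V and X 1.42 to 1.76, the median width 308 to 352 bp and the fullest window 10 to 14 peaks. The comparison with chromosome I, not among these 9, turned round with either replicate list, and the span no longer had the lowest ratio of variance to mean in replicate 2. The ratio to left III was 0.73 by covered length and 0.74 without the fullest 1 Mb of left III, which was added after seeing the data. With chromosome I added, the other ratio was 1.37. Windows of 200 kb held up to 28 peaks, by construction. No paired analysis was possible because each replicate is 1 list and no result comes from a test over samples. With depth unknown, absence from a list does not show that PES-1 was absent there.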

Other observations

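Very short peaks occurred in all 3 lists of the span. In the combined list 39 of 834 members (4.68%) were under 50 bp, against 5.55% of the other combined peaks. In replicate 1 they were 5 of 462 (1.08%), against 0.76% elsewhere, and in replicate 2 19 of 496 (3.83%), against 4.66% elsewhere. None of the 39 combined members was in both replicate lists, 31 (79.5%) were in neither, 7 were in replicate 2 alone and 1 in replicate 1 alone. Lack of support in both lists was not particular to the span: none of the 611 combined peaks under 100 bp elsewhere was in both. The share of short peaks in neither list was not compared with the rest of the genome. Members under 10 bp numbered 14, and 1 of them, III:11933465-11933465, was a single base with q = 0.00363. The choice of these short peaks followed sight of their values. The smallest gap between neighbouring peaks, over all chromosomes, was 200 bp in the combined list, 200 bp in replicate 1 and 201 bp in replicate 2, so no list holds peaks closer than this.

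In the 300 members found in all 3 lists, the combined −log10 q was above the larger replicate value in 298 (99.3%). This was not particular to the span: the share was 97.9% on X and between 99.25% on left III and 100% on chromosome I elsewhere. The combined −log10 q exceeded the sum of both replicate values by a median of 0.19 in the span. The median was 0.55 on left III, 0.04 on II, -0.03 on IV, 0.12 on V, -0.05 on X and 4.33 on chromosome I. The cause of the difference to chromosome I was not tested.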
